A study of Mus musculus with 6 samples.

Results

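Skeletal muscle contracts when calcium leaves the sarcoplasmic reticulum, the calcium store inside the fibre, and relaxes when it is pumped back. The 10 genes described here encode the main parts of that cycle: the calcium pumps Atp2a1 and Atp2a2, the pump inhibitors Sln and Pln, the release channel Ryr1, its voltage sensor Cacna1s, the membrane anchor Jph1, the store proteins Casq1 and Casq2, and the cytosolic buffer Pvalb. They were chosen by name, as symbols matched to the Ensembl identifiers of a table of read counts per gene, and all 10 had a row among the 16289 genes of the table. All 10 also passed the filter on low counts, as did 16259 genes in all.

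The counts came from RNA-seq of the tibialis anterior, a mostly fast-fibred shin muscle, of wild-type male C57BL/6J mice aged 12 weeks. Muscles of both groups had been injected with glycerol, which kills fibres and starts regeneration, and were taken 14 days later. The glycerol+melatonin group, 3 mice, had also received melatonin, a hormone of the pineal gland, and the glycerol group, 3 mice, a control treatment. The sources used here do not give the dose, route or timing of melatonin, and uninjured muscle was not analysed here, so the values describe injured muscle with and without melatonin. The RNA extraction text of the labels names longissimus dorsi, a back muscle, while the tissue label names tibialis anterior; the tissue label was used.

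At rest the fibre keeps its cytosol poor in calcium: the sarco/endoplasmic reticulum calcium pumps move it into the store, where calsequestrin holds it. A nerve impulse runs into the fibre along the T-tubules, the voltage sensor there opens the ryanodine receptor of the facing store membrane, and junctophilin keeps both membranes close together. Fast fibres mainly use the pump Atp2a1, the calsequestrin Casq1 and the soluble buffer parvalbumin, whereas slow fibres and heart use Atp2a2, and heart uses Casq2. Sarcolipin and phospholamban are short membrane peptides that bind the pumps and lower their calcium uptake.

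Sln was the gene of the 10 that stood furthest apart, at 2.67-fold higher in glycerol+melatonin than in glycerol muscle. Jph1, Cacna1s and Ryr1, which make up much of the release machinery, had lower CPM in every glycerol+melatonin library than in every glycerol library. As TPM, a measure that scales libraries in another way than CPM, the groups overlapped narrowly for Ryr1. The pumps, Pln, both calsequestrins and Pvalb overlapped between the groups. None of the 10 passed edgeR's quasi-likelihood test at an adjusted p under 0.05 over all genes, a threshold passed by 0.0738% of all genes tested (12 of 16259).

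Looser readings found 4 of the 10. At an unadjusted p under 0.05, edgeR found 1 member higher and 3 lower, where 19.5% of all genes passed (10.1% higher, 9.39% lower). The groups did not overlap for 1 member that was higher and 3 that were lower, where 26.0% of all genes did not overlap (13.6% higher, 12.5% lower). DESeq2, another count test, called 3 of the 10 (Sln higher, Cacna1s and Jph1 lower), where it called 4.63% of all genes (2.03% higher, 2.6% lower). Sln was the 1 member called by limma-voom with sample weights, which called 1.22% of all genes (0.615% higher, 0.609% lower). A log2 fold change above 0 was found for 4 members and below 0 for 6, beside 51.7% and 48.3% of all genes. Their median was -0.11, beside 0.02 over all genes tested.

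**Figure D1:**
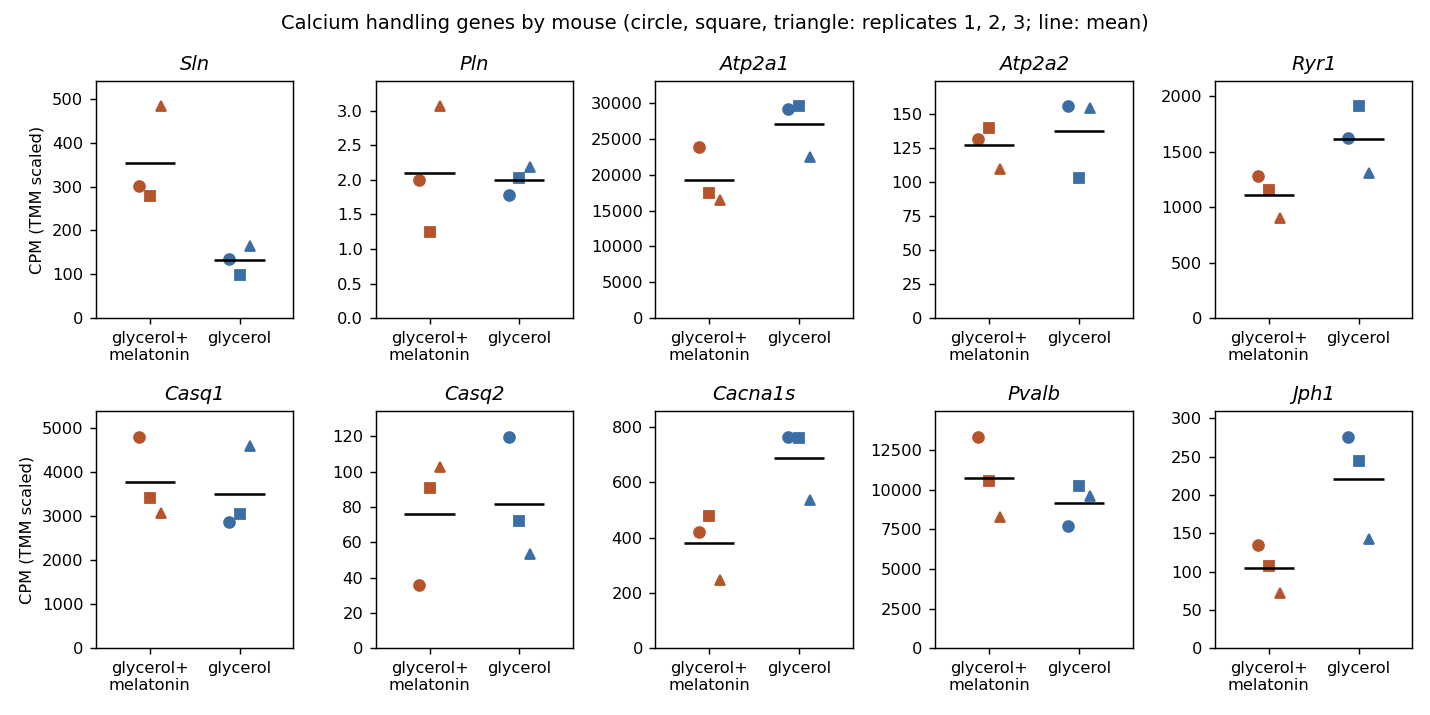
CPM, a gene's counts as a share of its library's total after scaling by TMM factors (which align libraries on the bulk of their genes), of each calcium handling gene in the 3 glycerol+melatonin mice, on the left of each panel, and the 3 glycerol mice, on the right. Each mark is 1 mouse, marks of the same shape share a replicate number, and the line is the group mean. Sln lies above and Jph1, Cacna1s and Ryr1 lie below the glycerol mice without overlap, and the other panels overlap.

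The pump inhibitors are micropeptides with very short reading frames, shown here because Sln, the gene that stood furthest apart, is one of them. The coding sequences of Sln, Pln and Mrln, another pump inhibitor of skeletal muscle, are given from the GENCODE M21 transcripts on GRCm38, 5′ to 3′, with the start codon and the stop codon in capitals.
Sln (31 codons before the stop): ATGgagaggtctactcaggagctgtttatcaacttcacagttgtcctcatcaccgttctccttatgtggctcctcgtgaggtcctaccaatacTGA
Pln (52 codons before the stop): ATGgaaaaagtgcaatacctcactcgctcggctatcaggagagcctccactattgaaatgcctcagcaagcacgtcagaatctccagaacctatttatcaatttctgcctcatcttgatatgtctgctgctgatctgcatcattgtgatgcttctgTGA
Mrln (46 codons before the stop): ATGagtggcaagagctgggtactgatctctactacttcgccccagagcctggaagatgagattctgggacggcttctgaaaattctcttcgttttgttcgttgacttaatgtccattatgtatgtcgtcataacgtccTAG
Each of the 3 reading frames lies within 1 exon, that of Sln at chr9:53853473-53853568, that of Pln at chr10:53343864-53344022 and that of Mrln at chr10:70219496-70219636, all on the plus strand. The Sln transcript has 1318 bases in all, of which 96 code.

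Sln (ENSMUSG00000042045, chr9:53850164-53854560, plus strand, GRCm38) encodes sarcolipin, which binds the pump and uncouples its ATP use from calcium uptake. It had 301.2, 278.5 and 482.4 CPM in the glycerol+melatonin mice, against 133.8, 99.0 and 165.0 CPM in the glycerol mice. All 3 glycerol+melatonin mice lay above all 3 glycerol mice, and mouse 3 was the highest of its group in both groups. The means were 354.0 ± 111.7 CPM in glycerol+melatonin and 132.6 ± 33.0 CPM in glycerol mice (SD, n = 3 each). The log2 fold change was 1.42 ± 0.27 (SE; 95% interval 0.79 to 2.04), with an adjusted p of 0.117 in edgeR. The adjusted p was 8.76e-05 in DESeq2, 0.0455 in limma-voom with sample weights and 0.121 in limma-voom without them. The reads behind these values were many, 13185, 15094 and 22671 in glycerol+melatonin and 5417, 4298 and 6734 in glycerol libraries, so counting error was small beside the spread between mice.

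Pln (ENSMUSG00000038583, chr10:53337667-53345987, plus strand) encodes phospholamban, the pump inhibitor of heart and slow fibres. It had 1.99, 1.25 and 3.06 CPM in the glycerol+melatonin mice, against 1.78, 2.03 and 2.18 CPM in the glycerol mice. The glycerol+melatonin mice spanned the whole range of the glycerol mice, and the log2 fold change was 0.07 ± 0.34 (95% interval -0.69 to 0.84, edgeR adjusted p = 0.926). Only 87, 68 and 144 reads in glycerol+melatonin and 72, 88 and 89 reads in glycerol libraries stood behind it. Pln is also uncertain because it shares 141 exon bases with Cep85l on the other strand, a gene with 1206 to 1829 counts in glycerol+melatonin and 1154 to 2440 in glycerol libraries, and the sources used here do not state the strand of counting.

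Both pumps overlapped between the groups. Atp2a1 (ENSMUSG00000030730, chr7:126445858-126463108, minus strand), the calcium pump of fast fibres, had 23790, 17446 and 16532 CPM in the glycerol+melatonin mice, against 29145, 29495 and 22452 CPM in the glycerol mice. Glycerol+melatonin mouse 1 lay above glycerol mouse 3, and the other glycerol+melatonin mice lay below all glycerol mice. Its log2 fold change was -0.49 ± 0.29 (95% interval -1.15 to 0.17, edgeR adjusted p = 0.373). Atp2a1 alone took 2.30%, 1.97% and 1.89% of all counts in the glycerol+melatonin libraries, against 2.53%, 2.62% and 2.33% in the glycerol libraries. It shares 763 exon bases with Rabep2 on the other strand, which had at most 39894 counts in a library, far fewer than the 777007 or more of Atp2a1.

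Atp2a2 (ENSMUSG00000029467, chr5:122453513-122502225, minus strand), the pump of slow fibres, heart and most other cells, had 131.8, 140.1 and 109.3 CPM in the glycerol+melatonin mice, against 155.6, 103.1 and 154.6 CPM in the glycerol mice. The groups overlapped, with glycerol mouse 2 the lowest of all 6. The log2 fold change was -0.12 ± 0.20 (95% interval -0.58 to 0.35, edgeR adjusted p = 0.781), and its sign turned to 0.26 when counts were scaled to pan-fibre genes and to 0.08 by library size alone, scalings whose effect on all genes is given further on.

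The members of the release machinery had lower CPM in every glycerol+melatonin mouse than in every glycerol mouse. Ryr1 (ENSMUSG00000030592, chr7:29003344-29125179, minus strand), the ryanodine receptor of skeletal muscle, had 1280, 1154 and 901 CPM in the glycerol+melatonin mice, against 1629, 1909 and 1313 CPM in the glycerol mice. No value of 1 group fell within the other, though glycerol+melatonin mouse 1 and glycerol mouse 3 were close together. As TPM, a level per length, Ryr1 overlapped, at 104.6 to 144.4 in glycerol+melatonin and 142.8 to 179.7 in glycerol mice. TPM was computed without the TMM factors used for CPM, so the libraries were scaled differently. For Ryr1 the log2 fold change was -0.54 ± 0.22 (95% interval -1.05 to -0.03, edgeR adjusted p = 0.239; DESeq2 adjusted p = 0.134).

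Cacna1s (ENSMUSG00000026407, chr1:136052750-136119822, plus strand) encodes the pore subunit of the dihydropyridine receptor, the voltage sensor that opens Ryr1. It had 420.4, 479.5 and 248.0 CPM in the glycerol+melatonin mice, against 765.4, 759.7 and 535.2 CPM in the glycerol mice. Without overlap, all 3 glycerol+melatonin mice lay below the glycerol mice, and mouse 3 was the lowest of its group in both groups. Cacna1s had a log2 fold change of -0.84 ± 0.27 (95% interval -1.47 to -0.22), with an adjusted p of 0.183 in edgeR and 0.0438 in DESeq2. The antisense gene Gm37759 shares 1309 exon bases with it and had 1866 to 2447 counts in glycerol+melatonin and 958 to 1881 in glycerol libraries, while Cacna1s itself had 11654 to 25981 counts in glycerol+melatonin and 21848 to 32989 in glycerol libraries. The log2 fold change of Gm37759 was 0.48 ± 0.25, opposite in sign to that of Cacna1s.

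Jph1 (ENSMUSG00000042686, chr1:16964560-17097889, minus strand) encodes junctophilin 1, which bridges the T-tubule and the store. It had 134.4, 106.8 and 72.0 CPM in the glycerol+melatonin mice, against 276.1, 244.1 and 142.7 CPM in the glycerol mice. All glycerol+melatonin mice lay below all glycerol mice, with glycerol mouse 3 only just above glycerol+melatonin mouse 1. Jph1 had a log2 fold change of -1.08 ± 0.30 (95% interval -1.77 to -0.40), a level 2.12-fold lower in glycerol+melatonin, with an adjusted p of 0.157 in edgeR, 0.0135 in DESeq2 and 0.0571 in limma-voom with sample weights.

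Because Ryr1 and Cacna1s work as a pair and were both lower, the RefSeq promoter windows of both (GRCm38.p6, 250 bases before to 50 after the start) are shown, with matches to CANNTG, the E-box bound by myogenic factors, in capitals. A palindromic motif was searched, so both strands were covered, and CAGCTG matches are a subset of the CANNTG matches.
Cacna1s (chr1:136052561-136052860, plus strand): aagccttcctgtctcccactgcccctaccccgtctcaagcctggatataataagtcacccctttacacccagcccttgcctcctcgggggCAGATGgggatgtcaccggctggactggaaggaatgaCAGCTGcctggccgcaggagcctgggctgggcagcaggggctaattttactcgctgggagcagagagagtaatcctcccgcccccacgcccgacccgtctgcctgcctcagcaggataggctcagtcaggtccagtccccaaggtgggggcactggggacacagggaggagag
Ryr1 (chr7:29125102-29125401, minus strand): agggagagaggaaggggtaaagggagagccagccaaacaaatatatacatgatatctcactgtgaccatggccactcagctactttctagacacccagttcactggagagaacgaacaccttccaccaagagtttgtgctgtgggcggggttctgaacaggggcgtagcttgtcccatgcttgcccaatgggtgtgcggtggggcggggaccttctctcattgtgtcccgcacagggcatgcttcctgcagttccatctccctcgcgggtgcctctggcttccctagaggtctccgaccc
The Cacna1s window held 2 matches to CANNTG, of which 1 was CAGCTG, and the Ryr1 window held 0. Over all 32851 promoter windows of this length, 72.3% held CANNTG and 16.3% held CAGCTG. Of the 10 genes, 7 had a window; those missing were Sln, Atp2a2 and Jph1.

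The store and buffer proteins did not separate the groups. Casq1 (ENSMUSG00000007122, chr1:172209894-172219868, minus strand), the calsequestrin that binds calcium in the store of fast fibres, had 4813, 3422 and 3088 CPM in the glycerol+melatonin mice, against 2862, 3061 and 4604 CPM in the glycerol mice. The highest value was glycerol+melatonin mouse 1 and the next was glycerol mouse 3, and the log2 fold change was 0.11 ± 0.28 (95% interval -0.53 to 0.74, edgeR adjusted p = 0.863).

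Casq2 (ENSMUSG00000027861, chr3:102086415-102146514, plus strand), the calsequestrin of heart that slow fibres also carry, had 35.7, 90.7 and 102.7 CPM in the glycerol+melatonin mice, against 119.9, 71.9 and 53.3 CPM in the glycerol mice. The lowest and the highest value belonged to mouse 1 of each group, so replicates of 1 group differed more than the groups did. Its coefficient of variation, 46.8% in glycerol+melatonin and 42.1% in glycerol mice, compared with 12.6% in glycerol+melatonin and 21.8% in glycerol mice for Atp2a2. The log2 fold change was -0.10 ± 0.41 (95% interval -1.04 to 0.84, edgeR adjusted p = 0.92), and its sign turned to 0.43 under scaling to pan-fibre genes and to 0.19 by library size alone.

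Pvalb (ENSMUSG00000005716, chr15:78191114-78206400, minus strand) encodes parvalbumin, the cytosolic calcium buffer of the fastest fibres. It had 13338, 10553 and 8265 CPM in the glycerol+melatonin mice, against 7692, 10250 and 9620 CPM in the glycerol mice. The groups overlapped, and the log2 fold change was 0.22 ± 0.27 (95% interval -0.40 to 0.84, edgeR adjusted p = 0.675).

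Levels of different genes were compared per length, as TPM, the share of a library's transcripts computed from the counts and the longest annotated transcript of each gene. TMM factors were not used for it. In glycerol+melatonin muscle the order was Pvalb (19016 ± 3410 TPM), Atp2a1 (9583 ± 1073), Casq1 (3530 ± 532.7), Sln (471.2 ± 159.2), Ryr1 (126.1 ± 20.1), Cacna1s (107.5 ± 38.5), Casq2 (53.9 ± 27.9), Atp2a2 (39.3 ± 7.14), Jph1 (37.6 ± 9.44) and Pln (1.57 ± 0.687 TPM; SD, n = 3 each). The ranges of neighbours in this order overlapped for each pair between Ryr1 and Jph1 and for no other pair of neighbours. In glycerol muscle the order was Pvalb (14362 ± 3435 TPM), Atp2a1 (11635 ± 546.9), Casq1 (2955 ± 1248), Cacna1s (163.7 ± 12.6), Ryr1 (157.6 ± 19.5), Sln (155.1 ± 58.1), Jph1 (67.6 ± 13.5), Casq2 (46.8 ± 14.3), Atp2a2 (37.0 ± 10.8) and Pln (1.31 ± 0.312 TPM; SD, n = 3 each). There Pvalb overlapped Atp2a1, the genes Cacna1s, Ryr1 and Sln overlapped as neighbours, and so did Jph1, Casq2 and Atp2a2. Sln lay above the ranges of Ryr1 and Cacna1s in glycerol+melatonin muscle and among them in glycerol muscle. Fast-fibre forms led in both groups, with Atp2a1 far above Atp2a2 and Casq1 far above Casq2.

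The members did not all move together within a group. In glycerol+melatonin mouse 3, 7 of the 10 were the lowest of their group (Atp2a1, Atp2a2, Ryr1, Casq1, Cacna1s, Pvalb and Jph1), while Sln, Pln and Casq2 were the highest. Glycerol+melatonin mouse 1 had the highest value of its group for 5 members, Atp2a1, Ryr1, Casq1, Pvalb and Jph1. In the glycerol group, mouse 3 was the lowest for 5 members and the highest for Sln, Pln and Casq1. The 10 genes together took 4.28%, 3.81% and 3.40% of all counts in the glycerol+melatonin libraries, against 3.72%, 4.09% and 4.05% in the glycerol libraries.

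The size of each difference depended on what it was measured against. Pan-fibre genes, 12 genes that every fibre uses such as Acta1 and Ckm, summed to 76781, 65406 and 49433 CPM in the glycerol+melatonin mice, against 80591, 83115 and 71893 CPM in the glycerol mice, and glycerol+melatonin mouse 3 was the lowest of the 6. All 12 had a log2 fold change below 0, with a median of -0.35, and 0 passed edgeR. At an unadjusted p under 0.05, 4 were found, all lower (33.3%, where all genes had 19.5%, 9.39% lower), and DESeq2 called 1, lower (8.33%, where it called 4.63% of all genes, 2.6% lower). In whole muscle, fewer fibres and less RNA per fibre cannot be told apart. Scaled to these genes, the median log2 fold change of all genes moved to 0.42, and by library size alone to 0.23. The median of the 10 members was 0.35 under the first scaling and 0.13 under the second, below that of all genes in both, and that of the pan-fibre genes was -0.15 by library size alone. Beside the all-gene median of 0.42, Sln stood at 1.85 (edgeR adjusted p = 0.0843), Jph1 at -0.69, Cacna1s at -0.46, Ryr1 at -0.15 and Atp2a1 at -0.10. The part of fibre content in the members' differences was not tested.

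Transcript length also moved with the fold changes. When genes were split into 3 equal bins by transcript length, the shortest bin, which holds Sln, Casq1 and Pvalb, had a median log2 fold change of 0.20 with 67.6% of genes above 0, and the longest bin, which holds Atp2a2, Ryr1, Cacna1s and Jph1, had a median of -0.12 with 37.6% above 0. After a correction for transcript length in each library, those medians were 0.01 and 0.03. Sln then stood at 1.21, Jph1 at -0.94, Cacna1s at -0.67, Ryr1 at -0.32 and Atp2a1 at -0.42, and Casq1 and Pvalb changed sign to -0.02 and -0.05. What the dependence on length comes from was not tested.

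**Figure D2:**
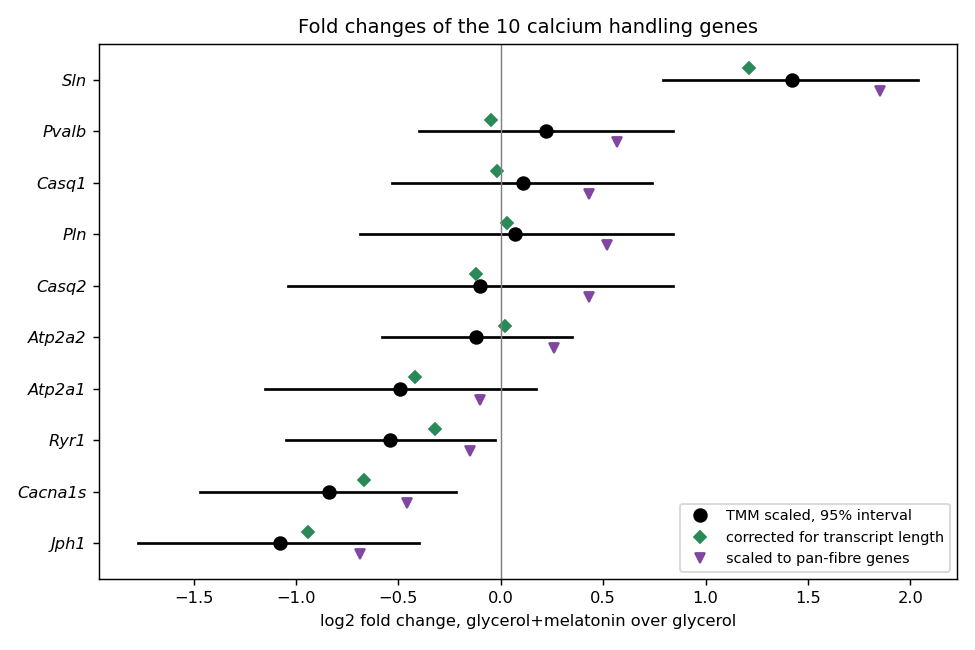
Log2 fold change, glycerol+melatonin over glycerol, of each calcium handling gene (circle) with its 95% interval from edgeR (line), beside the value after a correction for transcript length (diamond) and after scaling to pan-fibre genes (triangle). Sln stays highest, between 1.21 and 1.85, and Jph1 stays lowest, between -1.08 and -0.69, under the 3 scalings drawn.

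Ratios between members of 1 library do not depend on library scaling, and 4 were compared with exact two-sided permutation tests, which with 3 mice against 3 cannot give a p below 0.1. The log2 ratio of Sln to Atp2a1 counts, the inhibitor beside the fast pump, was -6.30, -5.97 and -5.10 in the glycerol+melatonin libraries, against -7.77, -8.22 and -7.09 in the glycerol libraries. The groups did not overlap, the difference was 1.90 (3.73-fold), and the exact permutation p was 0.1, the smallest possible. The ratio was not corrected for the dependence of fold changes on transcript length, and Sln has 1318 bases and Atp2a1 3477. With that correction their log2 fold changes were 1.21 and -0.42, beside 1.42 and -0.49 without it. Per length, Sln stood at 3.34%, 4.21% and 7.70% of the Atp2a1 level in the glycerol+melatonin libraries, against 1.21%, 0.885% and 1.94% in the glycerol libraries.

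The other ratios overlapped between the groups. The log2 ratio of Atp2a2 to Atp2a1, slow over fast pump, averaged -7.23 ± 0.27 in glycerol+melatonin and -7.63 ± 0.49 in glycerol libraries (SD, n = 3 each; exact permutation p = 0.4). The log2 ratio of Casq2 to Casq1 averaged -5.74 ± 1.17 in glycerol+melatonin and -5.47 ± 0.93 in glycerol libraries (exact permutation p = 0.7), and the difference of -0.27 turned to 0.40 without glycerol+melatonin replicate 1 and to 0.18 without glycerol replicate 1. The log2 ratio of Ryr1 to Cacna1s averaged 1.58 ± 0.30 in glycerol+melatonin and 1.24 ± 0.13 in glycerol libraries (exact permutation p = 0.3).

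**Figure D3:**
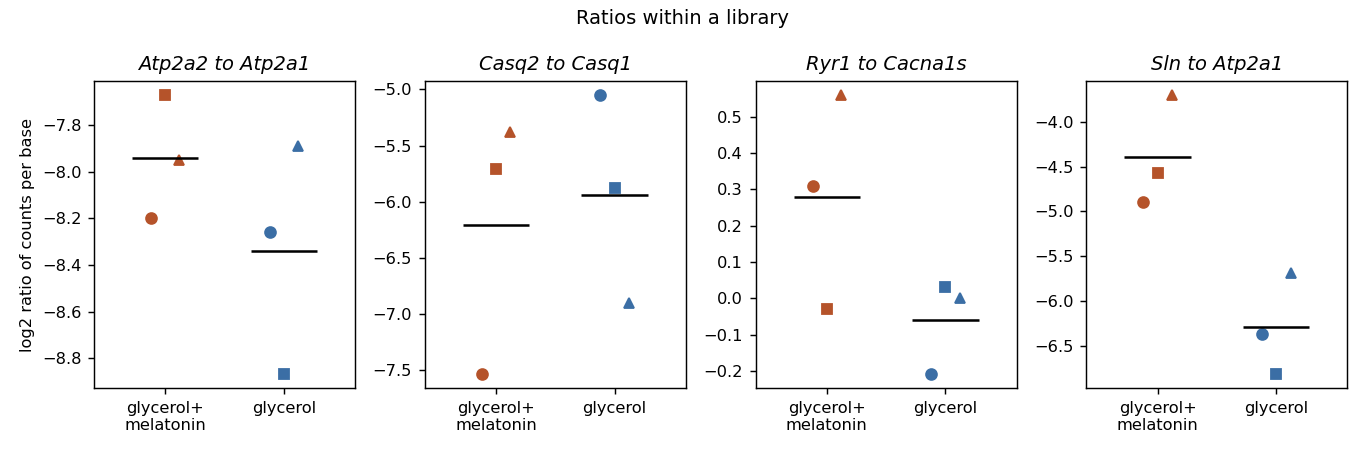
Log2 ratios of counts per base of transcript for 4 pairs of calcium handling genes in each glycerol+melatonin library (left of each panel) and each glycerol library (right), with the group mean as a line; the vertical axes do not start at 0 and differ between panels. The groups are separate for Sln to Atp2a1, with a difference of 1.90, and overlap for the other pairs.

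The wider calcium system was read from 65 other genes in 6 roles, of which 62 had a row and were tested; Strit1, Arln and Erln were not analysed here. None of the 62 passed edgeR over all genes. At an unadjusted p under 0.05, 12 were found (19.4%; 2 higher, 10 lower), a share like the 19.5% of all genes (10.1% higher, 9.39% lower). DESeq2 called 5 (8.06%), all lower, where it called 4.63% of all genes (2.6% lower), and limma-voom with sample weights called 1, Slc8a3, where it called 1.22%. The groups did not overlap for 13 of them (21.0%; 3 higher, 10 lower), where 26.0% of all genes did not overlap. Their median log2 fold change was -0.10, with 28 above 0 and 34 below. It was 0.30 when scaled to pan-fibre genes and 0.11 by library size alone, scalings that put the median of all genes at 0.42 and 0.23.

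Among relatives of the pump and its inhibitors, Mrln, which encodes myoregulin, had 8.41, 11.1 and 5.40 CPM in the glycerol+melatonin mice, against 3.26, 4.91 and 7.74 CPM in the glycerol mice. The groups overlapped, with glycerol+melatonin mouse 3 below glycerol mouse 3, and Mrln stood at 0.65 ± 0.36 on the log2 scale (edgeR adjusted p = 0.348). Atp2a3, the pump of non-muscle cells, had a log2 fold change of 0.02 ± 0.21.

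The release channels and their partners in the store were balanced, 7 above 0 and 8 below among 15, with a median of 0.00, and 0 passed edgeR (1 lower at an unadjusted p under 0.05, 6.67% where all genes had 19.5%; DESeq2 called 0). Srl, which encodes the luminal calcium binder sarcalumenin, had 1115, 901.8 and 543.6 CPM in the glycerol+melatonin mice, against 1298, 1439 and 1335 CPM in the glycerol mice. The groups did not overlap, and the log2 fold change was -0.67 ± 0.27 (edgeR adjusted p = 0.226). Hrc, the histidine-rich calcium binder of the store, was at -0.43 ± 0.23 with overlap, and Jsrp1, which links the store to the voltage sensor, was at 0.33 ± 0.20 without overlap.

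Of the 9 triad and voltage sensor partners, 5 were above 0 and 4 below, with a median of 0.05, and 0 passed edgeR (1 higher and 1 lower at an unadjusted p under 0.05, 22.2% where all genes had 19.5%; DESeq2 called 0). Jph2, the junctophilin that heart and skeletal muscle share, had 382.7, 327.6 and 195.3 CPM in the glycerol+melatonin mice, against 454.6, 566.7 and 389.7 CPM in the glycerol mice. It lay lower without overlap, as Jph1 did, at -0.64 ± 0.27 on the log2 scale (edgeR adjusted p = 0.245). Cacng1, a small subunit of the same channel as Cacna1s, had 398.0, 354.2 and 346.7 CPM in the glycerol+melatonin mice, against 298.7, 274.5 and 283.9 CPM in the glycerol mice. It lay higher without overlap, at 0.36 ± 0.15 (edgeR adjusted p = 0.25), opposite in sign to Cacna1s. Sypl2, which encodes mitsugumin 29 of the triad, was at -0.52 ± 0.24 with overlap.

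Of the 18 cytosolic calcium binders and effectors, 13 were below 0 with a median of -0.31 (0.12 when scaled to pan-fibre genes), and 0 passed edgeR. At an unadjusted p under 0.05, 4 were found, all lower (22.2%, where all genes had 19.5%, 9.39% lower). DESeq2 called 3 of them (16.7%, where it called 4.63% of all genes, 2.6% lower), all lower: the calmodulin gene Calm3 (adjusted p = 0.0495), the kinase gene Camk2a (0.0262) and the calcineurin regulator Rcan2 (0.04). Rcan2 had 41.8, 32.2 and 35.0 CPM in the glycerol+melatonin mice, against 61.5, 65.1 and 46.7 CPM in the glycerol mice, without overlap. Calm3 was at -0.59 ± 0.17 and Camk2g, another subunit gene of the same kinase, at -0.58 ± 0.18, both without overlap. Camk2a was named after its values were seen; it had 48.2, 31.6 and 20.0 CPM in the glycerol+melatonin mice, against 81.7, 90.0 and 46.2 CPM in the glycerol mice, with overlap.

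At the surface membrane 6 of 11 genes were below 0, with a median of -0.20 (0.20 when scaled to pan-fibre genes), and 0 passed edgeR. At an unadjusted p under 0.05, 3 were found, all lower (27.3%, where all genes had 19.5%, 9.39% lower), and DESeq2 called 2, both lower (18.2%, where it called 4.63% of all genes, 2.6% lower). Slc8a3, a sodium-calcium exchanger of skeletal muscle and brain that carries calcium out of the fibre, had 44.5, 24.0 and 30.9 CPM in the glycerol+melatonin mice, against 93.5, 72.8 and 63.8 CPM in the glycerol mice. The groups did not overlap, and the log2 fold change was -1.21 ± 0.25, with an adjusted p of 0.122 in edgeR, 0.00092 in DESeq2 and 0.0462 in limma-voom with sample weights. Stim1, the store sensor that opens surface channels when the store is empty, had 86.5, 123.3 and 63.4 CPM in the glycerol+melatonin mice, against 145.4, 158.8 and 167.5 CPM in the glycerol mice. It lay lower without overlap, at -0.79 ± 0.24, with an adjusted p of 0.171 in edgeR and 0.0422 in DESeq2. Slc8a1, the exchanger of heart, was low in level at 0.426 to 0.822 CPM in glycerol+melatonin and 1.06 to 2.12 CPM in glycerol mice, with a log2 fold change of -1.36 ± 0.41.

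For mitochondrial calcium uptake, 4 of 7 genes were above 0 with a median of 0.23, and 0 passed edgeR (1 higher and 1 lower at an unadjusted p under 0.05, 28.6% where all genes had 19.5%; DESeq2 called 0). Smdt1, a small regulator of the mitochondrial uniporter, had 73.4, 85.8 and 57.4 CPM in the glycerol+melatonin mice, against 43.3, 45.1 and 55.2 CPM in the glycerol mice, higher without overlap at 0.59 ± 0.19. It shares 245 exon bases with Pheta2 on the same strand, so its reads are uncertain, though Pheta2 had at most 142 counts in a library. Letm1, an ion exchanger of the inner membrane, was at -0.39 ± 0.17 without overlap, and Micu2, a gatekeeper of the uniporter, at -0.26 ± 0.15 with overlap.

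**Figure D4:**
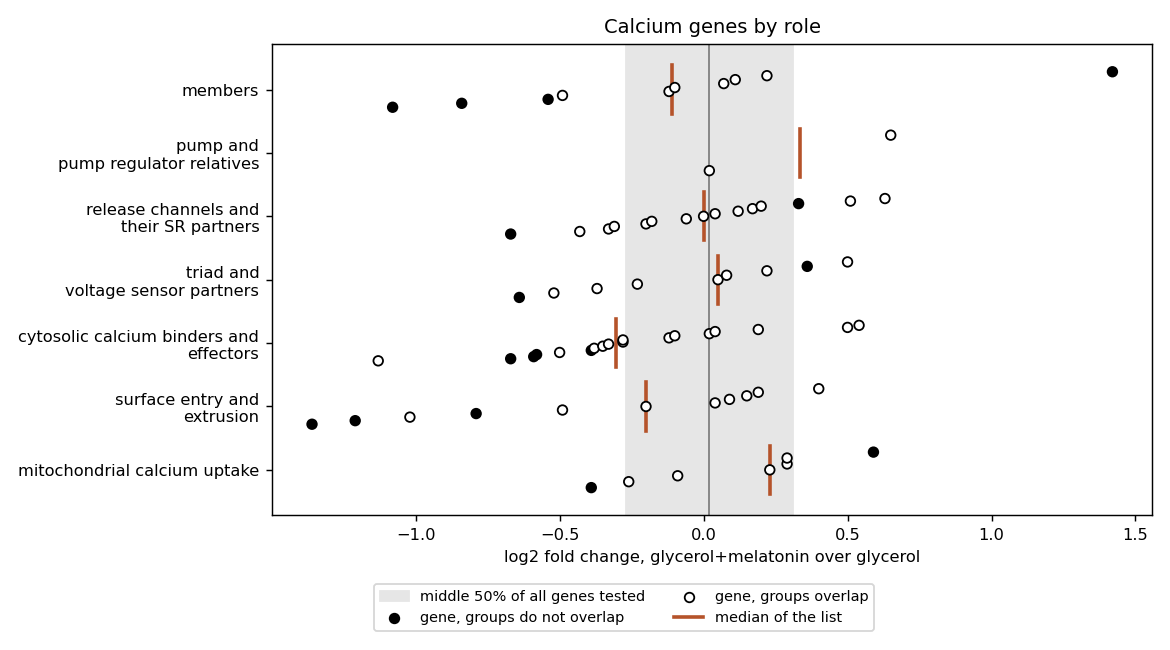
Log2 fold change, glycerol+melatonin over glycerol, of the 10 members and of 62 other calcium genes by role, 1 dot per gene, filled where the 3 glycerol+melatonin mice do not overlap the 3 glycerol mice. The vertical bar is the median of a list and the grey band the middle 50% of all genes tested; Sln, at 1.42, lies furthest to the right and Slc8a1, at -1.36, furthest to the left.

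The tissue and the fibre state behind these values were read from marker lists. Fast fibre genes summed to 67529 to 95369 CPM in glycerol+melatonin and 85470 to 102618 CPM in glycerol mice, and slow fibre genes to 1500 to 1903 CPM in glycerol+melatonin and 2038 to 2355 CPM in glycerol mice, sums that are not per length. Of 10 fast genes 5 were above 0 (median -0.09), of 9 slow genes 6 were above 0 (median 0.47), and of 11 immature fibre genes 10 were above 0 (median 0.43), with 0 passing edgeR in each. At an unadjusted p under 0.05, edgeR found 3 fast genes (1 higher, 2 lower), 3 slow genes (2 higher, 1 lower) and 4 immature fibre genes (all higher). These were 30.0%, 33.3% and 36.4% of the lists, where all genes had 19.5% (10.1% higher, 9.39% lower). DESeq2 called 0 fast, 0 slow and 1 immature fibre gene (higher, 9.09% of that list), where it called 4.63% of all genes (2.03% higher). The fast myosin genes Myh4, Myh1 and Myh2 were at -0.58 ± 0.31, -0.34 ± 0.25 and 0.74 ± 0.28, and the slow myosin gene Myh7 at -0.75 ± 0.98. Myh3, the embryonic myosin gene of regenerating fibres, had 43.1, 68.2 and 88.0 CPM in the glycerol+melatonin mice, against 50.5, 19.1 and 42.6 CPM in the glycerol mice. Its highest mouse was glycerol+melatonin mouse 3, as for Tnnt2, Chrng, Ncam1, Mymk and Myog. The immature fibre genes Myh8, Myl4, Chrna1, Mymx and Actc1 were highest in other mice. Sln was also highest in glycerol+melatonin mouse 3. The immature fibre genes summed to 1981 to 2797 CPM in glycerol+melatonin and 2989 to 3316 CPM in glycerol mice, but 1 gene carried most of that sum.

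Actc1, the heart form of actin that young fibres also use, had 2326, 2196 and 1358 CPM in the glycerol+melatonin mice, against 2782, 2906 and 2547 CPM in the glycerol mice, and was the 1 immature fibre gene below 0 (-0.49 ± 0.25). The other 10 summed to 467.3, 601.0 and 622.9 CPM in the glycerol+melatonin mice, against 534.1, 331.9 and 442.5 CPM in the glycerol mice, with overlap. Mybpc1, a myosin binding protein gene, likewise gave 1623, 1448 and 1205 CPM of the slow sum in the glycerol+melatonin mice, against 2065, 1967 and 1833 CPM in the glycerol mice. The other 8 slow genes summed to 280.6, 291.5 and 295.0 CPM in the glycerol+melatonin mice, against 289.6, 96.0 and 205.6 CPM in the glycerol mice, with overlap. So glycerol+melatonin mouse 3, the highest for Sln, had the lowest sum of the 6 mice over each full list and the highest over the genes that remain. For the slow genes the margin was small, 295.0 CPM beside 291.5 and 289.6. Glycerol mouse 1, at 289.6, had Sln at 133.8 CPM. Of the remaining slow genes, glycerol+melatonin mouse 3 was the highest of its group for Myl3, Tnnt1 and Myoz2 and the lowest for the rest. Both genes were left out after their values were seen. The part of fibre type and fibre age in the difference of Sln was not tested.

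Markers of other cells are given beside these values. Heart muscle genes, where Sln and Pln are also used, were low: Nppa, Nppb, Mybpc3 and Myl7 were not analysed here, and Myh6 and Tnni3 summed to 1.71 to 2.40 CPM in glycerol+melatonin and 1.70 to 3.55 CPM in glycerol mice. Summed levels ran over 946.6 to 1310 CPM in glycerol+melatonin and 980.6 to 1042 in glycerol mice for 5 smooth muscle and pericyte genes (3 above 0). They ran over 789.7 to 1266 in glycerol+melatonin and 833.7 to 1014 in glycerol mice for 5 endothelial genes (3 above 0), and over 4696 to 5709 in glycerol+melatonin and 6552 to 7154 in glycerol mice for 6 fibro-adipogenic progenitor genes (4 below 0). For 4 fat cell genes, all below 0, they ran over 16.9 to 52.6 in glycerol+melatonin and 15.7 to 100.9 in glycerol mice, and for 5 macrophage genes (4 below 0) over 177.4 to 236.2 in glycerol+melatonin and 179.2 to 260.1 in glycerol mice. None of these genes passed edgeR. In edgeR 1 smooth muscle gene (higher), 1 endothelial gene (higher) and 2 progenitor genes (lower) had an unadjusted p under 0.05. These were 20.0%, 20.0% and 33.3% of their lists, where all genes had 19.5% (10.1% higher, 9.39% lower). DESeq2 called 1 progenitor gene, lower (16.7% of that list), where it called 4.63% of all genes (2.6% lower). The part of these cells in the members' differences was not tested.

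**Figure D5:**
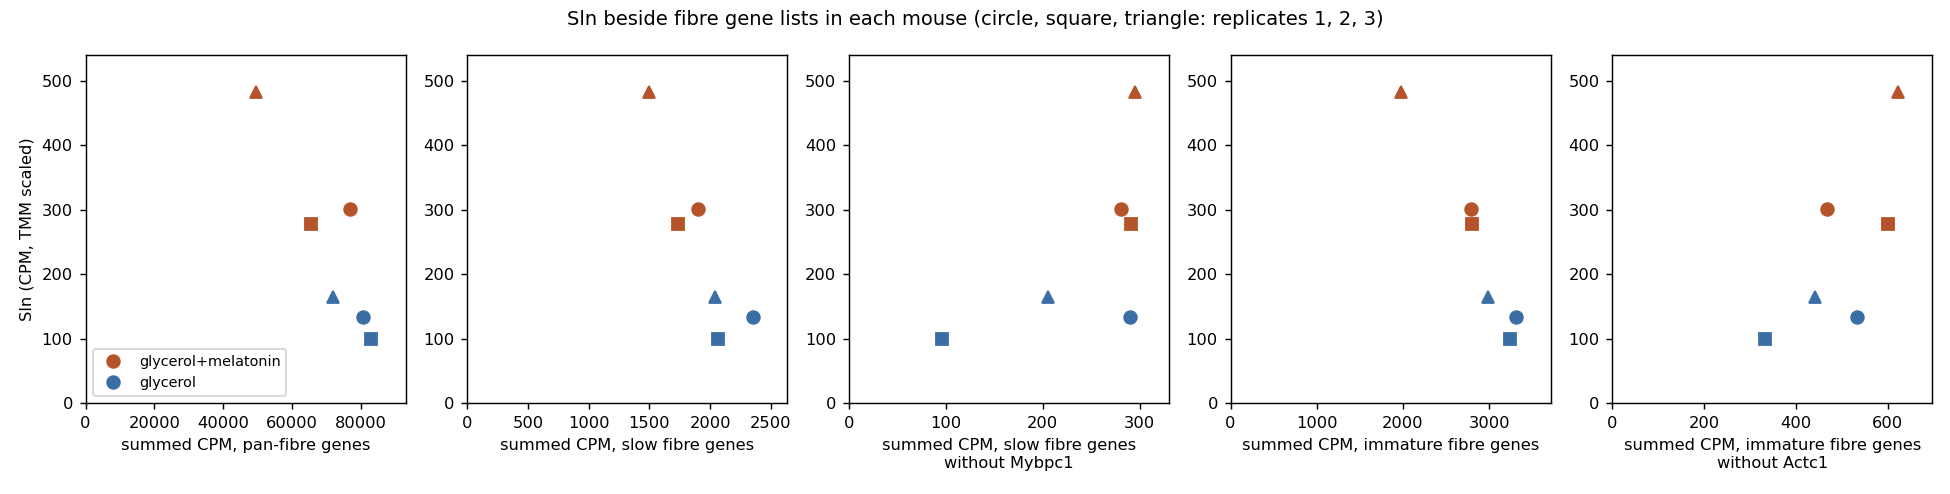
Sln (CPM, vertical axis) beside the summed CPM (horizontal axes) of pan-fibre genes, of slow fibre genes with and without Mybpc1 and of immature fibre genes with and without Actc1, in each glycerol+melatonin and each glycerol mouse, 1 mark per mouse. Glycerol+melatonin mouse 3, with the highest Sln at 482.4 CPM, has the lowest sum of each full list, and without Mybpc1 or Actc1 the highest sum, at 295.0 and 622.9 CPM. Without Mybpc1 the next sums, 291.5 and 289.6 CPM, lie close to it.

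Log2 CPM profiles over the 6 libraries were centred on each gene's own mean and compared among 13881 genes of at least 1 mean CPM. Nearest to Sln were Gm10076, Snhg15 and 5730419F03Rik, with mean absolute differences of 0.139, 0.157 and 0.16. All 3 were low in level, and Gm10076, the nearest, had 5.55, 5.43 and 6.70 CPM in the glycerol+melatonin mice, against 2.32, 2.12 and 2.96 CPM in the glycerol mice. The nearest to Pvalb were Gm43672, Ciapin1 and Atg4d, with mean absolute differences of 0.0493, 0.0513 and 0.0573. No calcium gene of the lists was among these 6.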

How the data were processed

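Whole tibialis anterior RNA of 6 mice, 3 per group, was sequenced. The deposited file holds the authors' raw counts by gene. The submitters' processing notes list HISAT2 2.0, StringTie 1.3.3b, Trimmomatic 0.36, DESeq2 1.12.4, FastQC 0.11.2 and bedtools 2.26.0, with the build mm10. The counter, its annotation and its use of strand or multimapped reads were not given there. Each gene totalled at least 28 counts, and 16203 of 16289 had a count in every library. Library totals were 39310361 to 48879045 counts, so the spread between mice limits precision more than counting error does for 9 of the 10 members; Pln, at 68 to 144 counts, is limited by both. Chi-square per degree of freedom between replicates was 65.9 to 181, far above sampling noise; the series' text calls them biological replicates.

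Counts were tested with edgeR 4.0.16 (R 4.3.3; TMM factors, which ran from 0.8691 to 1.141, filterByExpr, quasi-likelihood, Benjamini-Hochberg adjusted p under 0.05 over 16259 genes). SE is the log2 fold change divided by the square root of F. Positions and lengths came from GENCODE M21 on GRCm38; 16260 identifiers had a symbol. Alternatives were other factors (RLE, upper quartile, library size alone, pan-fibre genes), other filters (1 CPM in at least 3 libraries, or none), limma-voom 3.58.1 with and without sample weights, DESeq2 1.42.0, a replicate block, a length correction (spline with 4 degrees of freedom per library) and leaving out each library. Scripts were tested on simulated data. The 10 members and the other gene lists were chosen with earlier results of these data known. Named besides the members were the 3 genes of each role with the smallest unadjusted p, all pump regulators, the 3 nearest profiles of Sln and Pvalb, and genes that check the tissue.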

Additional observations from a re-analysis of the deposited data

How the results depend on the processing

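Of the values in the text, 12 genes called over all genes became 22 with pan-fibre factors, 753 with DESeq2, 199 with limma-voom and sample weights, 7 with the length correction and 6 to 27 when 1 library was left out (25 without glycerol+melatonin replicate 1, 24 without glycerol+melatonin replicate 3, 6 without glycerol replicate 1, 27 without glycerol replicate 3). Members called were 3 with DESeq2 and 1 with limma-voom and sample weights, and other calcium genes called were 5 and 1; both counts were 0 under every other setting run. Same-numbered libraries did not deviate together (correlations -0.0146, 0.00429 and -0.048), and the labels name no pairing. Such correlations cannot exclude a shared litter, day or batch. With the replicate number as a block, edgeR called 0 genes (2991 at an unadjusted p under 0.05) and 0 members. Pln and Atp2a3 both turned to -0.01 there. The sign also turned for Pln with limma-voom (-0.03), with sample weights (-0.26) and between -0.30 and 0.34 as libraries were left out (-0.0029 without glycerol replicate 1), and for Atp2a2 with library size alone (0.08), pan-fibre factors (0.26), sample weights (0.01) and the length correction (0.02). Casq1 turned with the length correction (-0.02) and ran from -0.11 to 0.35 as libraries were left out, Casq2 turned with library size alone (0.19) and pan-fibre factors (0.43) and ran from -0.36 to 0.29, and Pvalb turned with the length correction (-0.05). Atp2a3 turned with limma-voom (-0.01) and sample weights (-0.15) and ran from -0.22 to 0.14, Micu2 turned with pan-fibre factors (0.12), and the Casq2 to Casq1 difference ran from -0.75 to 0.40. The cause of these turns was not tested. Sln (1.13 to 1.61 as libraries were left out), Jph1 (-1.31 to -0.87), Cacna1s (-1.04 to -0.60), Ryr1 (-0.67 to -0.40) and Atp2a1 (-0.67 to -0.39) kept their sign in all 17 settings. With 3 mice a group the intervals of Atp2a1 (-1.15 to 0.17), Atp2a2, Pln, Casq1, Casq2 and Pvalb still span changes in either direction. Those of Sln, Jph1, Cacna1s and Ryr1 did not include 0. The intervals are not adjusted for the number of genes tested, and none of these members passed edgeR. Pln, at 68 to 144 counts in glycerol+melatonin and 72 to 89 in glycerol libraries, is also limited by depth.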
